A study of Homo sapiens with 2 samples.

Results

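DEK peaks were examined at PAX8, PAX2, LHX1, WT1 and SIX2, 5 transcription factor genes of the kidney lineage, in chromatin of the established renal carcinoma line 786-O. The genes were chosen by name, out of 19974 protein-coding genes of RefSeq on chromosomes 1 to 22 and X. Earlier results of these data were known when they were chosen. Every peak that overlapped the gene's span, or the 20 kb on either side of it, was taken as belonging to the gene's window. The 5 windows held 11 of the 19128 peaks of replicate 1 and 19 of the 24580 peaks of replicate 2. Both ChIP-seq libraries form 1 group: 786-O cells of wild-type (WT) genotype, grown in serum-containing medium, titled as negative controls and named Cas9 in their sample descriptions, with DEK given as the antibody. Whether the cells or the precipitation are the negative control is not stated in the labels, and the peaks are called DEK peaks on the reading that control cells were precipitated with a DEK antibody. Separate cultures for the replicates are not stated either, and their spread may be technical. No DEK-edited, input or expression sample was analysed here, and neither the cell type nor the activity of the genes could be checked.

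DEK is an abundant nuclear protein that associates with DNA, histones and chromatin. PAX8 and PAX2 are paired-box factors that specify the renal epithelial lineage, and PAX8 stays on in most renal carcinomas, where pathologists use it as a marker. LHX1, a LIM homeobox factor, acts in the early nephric lineage and in nephron patterning. WT1, a zinc finger factor, is needed for nephron formation and later marks podocytes, and SIX2 keeps nephron progenitors undifferentiated. In most adult kidney cells SIX2 is silent.

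The sequence just before the annotated starts of these genes is shown first, because no DEK peak of either replicate reached any of them. The RefSeq promoter table (GRCh38.p14) matched 4 of the 5 members with 8 annotated starts: 1 for PAX8, 2 for PAX2, 4 for WT1 and 1 for SIX2. Of the windows from 250 bases before to 50 bases after a start, 0 of these 8 overlapped a region shared by both replicates, against 3.63% of 22132 such windows of protein-coding genes. With 8 windows, this count of 0 is not set apart from that share. The 250 bases before the start are given 5′ to 3′ on the gene's strand, with CpG dinucleotides in capitals, for the most upstream start of PAX8, WT1 and SIX2 and both starts of PAX2.
PAX8, chr2:113278922-113279171, minus strand: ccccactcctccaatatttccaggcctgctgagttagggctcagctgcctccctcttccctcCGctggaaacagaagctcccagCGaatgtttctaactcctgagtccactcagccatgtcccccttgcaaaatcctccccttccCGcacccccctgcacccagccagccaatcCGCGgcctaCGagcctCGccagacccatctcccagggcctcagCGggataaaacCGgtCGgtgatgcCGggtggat
PAX2 first start, chr10:100735146-100735395, plus strand: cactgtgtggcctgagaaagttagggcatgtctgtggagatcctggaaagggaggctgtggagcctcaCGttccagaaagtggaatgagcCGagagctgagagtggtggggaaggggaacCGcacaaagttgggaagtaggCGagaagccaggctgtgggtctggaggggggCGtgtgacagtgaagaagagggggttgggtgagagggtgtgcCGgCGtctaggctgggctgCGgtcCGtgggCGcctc
PAX2 second start, chr10:100745332-100745581, plus strand: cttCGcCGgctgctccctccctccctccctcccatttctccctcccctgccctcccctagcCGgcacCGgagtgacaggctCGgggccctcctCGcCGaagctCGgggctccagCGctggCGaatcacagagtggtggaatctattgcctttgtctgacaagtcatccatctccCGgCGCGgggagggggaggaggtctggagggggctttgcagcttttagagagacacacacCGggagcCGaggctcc
WT1, chr11:32435540-32435789, minus strand: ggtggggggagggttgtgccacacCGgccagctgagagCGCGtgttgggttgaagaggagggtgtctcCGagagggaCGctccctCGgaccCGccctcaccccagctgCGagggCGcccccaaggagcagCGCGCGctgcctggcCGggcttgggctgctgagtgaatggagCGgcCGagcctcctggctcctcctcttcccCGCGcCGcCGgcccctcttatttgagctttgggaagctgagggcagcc
SIX2, chr2:45009453-45009702, minus strand: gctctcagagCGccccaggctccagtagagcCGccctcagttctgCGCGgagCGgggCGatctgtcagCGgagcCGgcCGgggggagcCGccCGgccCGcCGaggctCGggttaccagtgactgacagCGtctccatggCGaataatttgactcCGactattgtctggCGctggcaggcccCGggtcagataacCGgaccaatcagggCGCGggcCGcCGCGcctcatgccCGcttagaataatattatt
The PAX8 stretch held 11 CpG, the PAX2 stretches 10 and 15, the WT1 stretch 19 and the SIX2 stretch 26, against a median of 16 over the 22132. The CCAAT box (CCAAT or ATTGG, either strand) occurred 2 times before PAX8 and 1 time before SIX2, and was present in 32.7% of all such stretches. The GC box (GGGCGG or CCGCCC) occurred 2 times before SIX2 and 1 time before WT1, and was present in 53.7%. These matches describe the letters only. The nearest peak to the PAX8 stretch lay 4.72 kb away in replicate 1 and 4.85 kb in replicate 2, and the nearest to the PAX2 stretches 1.26 kb (first start, replicate 1) and 1.52 kb (second start, replicate 2).

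PAX8 carried most of the DEK peaks of the 5 genes. Its window (gene span chromosome 2, 113215997 to 113278921, GRCh38, 62.9 kb, minus strand) held 7 peaks of replicate 1 and 12 of replicate 2. Of these, 6 in each library overlapped a peak of the other by at least 1 bp and formed 6 shared regions. Over all peaks 67.8% of replicate 1 and 52.2% of replicate 2 were overlapped in this way. The shared regions were not spread evenly along the gene: 4 lay inside it, between 60.0% and 96.0% of the way from start to end, 1 lay beyond its end and 1 before its start. In the 50% of the gene nearest the start, the only peak was 1 of replicate 2 at 35.4% of the way along.

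The strongest PAX8 region lay at 113240244 to 113241362, 37.8 kb into the gene, where PAX8 overlaps the long non-coding RNA gene PAX8-AS1 (113235527 to 113267023). Fold enrichment is the authors' own value at the summit, a linear ratio over the background that the peak caller took for the same library. It was 5.79 in replicate 1 and 4.94 in replicate 2 (5.37 ± 0.601, SD, n = 2), and the −log10 q was 22.3 and 18.8. The summit pileup, the fragments stacked at the summit as recovered from the deposited ratio and p, was 58 in both libraries (exact Poisson 95% interval 44.04 to 75.0, which covers counting error only). The background there differed, at 9.18 and 10.9 fragments, and with it the fold enrichment. Replicate 2 had a single peak of 1119 bp where that of replicate 1 was 599 bp wide, and the summits were 96 bp apart. By the mean percentile of fold enrichment the region stood at rank 1268 of the 12590 shared regions, and by pileup at percentile 98.9 of the peaks in both lists.

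**Figure D1:**
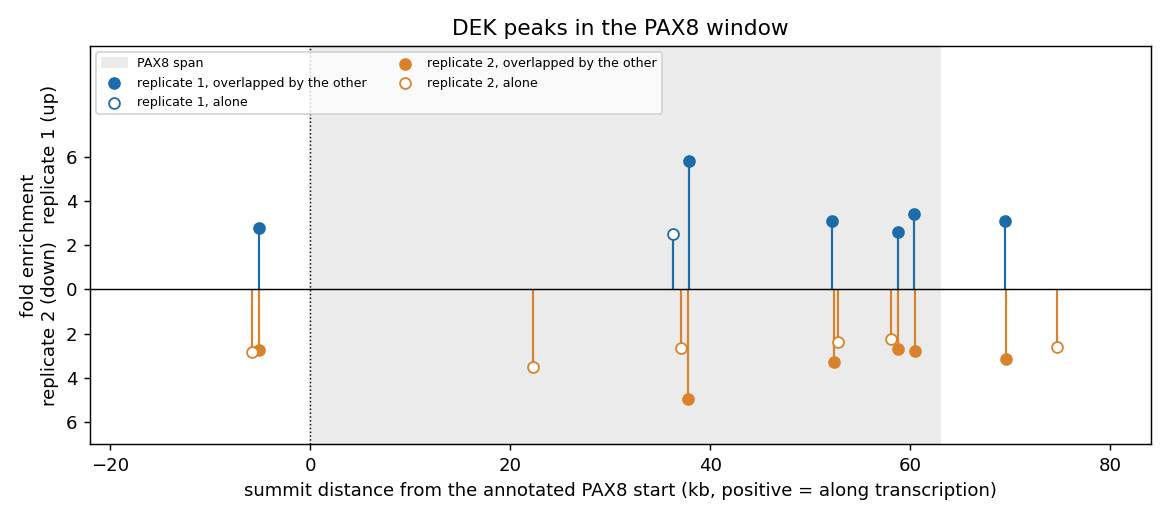
Fold enrichment of every DEK peak in the PAX8 window (vertical axis, replicate 1 upward and replicate 2 downward) against the distance of its summit from the annotated start in kb. Filled points are overlapped by a peak of the other replicate and open points are not; the tallest peak of each replicate, at 5.79 and 4.94, lies 37.8 kb into the gene, and none lies at the start.

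The other 5 PAX8 regions were weaker, with a fold enrichment between 2.66 and 3.17 (mean of the replicates). By the same mean percentile they stood at ranks from 11678 to 12473 of the 12590 shared regions, near the weakest. Nearest to the strongest, 13.2 kb further along the gene, the region at 113226405 to 113227075 had 3.08 in replicate 1 and 3.26 in replicate 2 (3.17 ± 0.128, SD, n = 2). The region at 113219944 to 113220291 had 2.61 and 2.71 (2.66 ± 0.0687), and its summits were 1 bp apart. The region at 113218381 to 113218901, close to the end of the gene, had 3.39 and 2.77 (3.08 ± 0.436). This last one differed most between the replicates among the 6, by a ratio of 1.22.

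Outside the gene, the region at 113209054 to 113209571 lay 6.5 to 6.6 kb beyond the end of PAX8, with 3.07 and 3.13 (3.10 ± 0.0440, SD, n = 2). It spans the end of the neighbouring gene PSD4, which encodes a guanine nucleotide exchange factor for ARF6, at 113209391. Upstream of PAX8, the region at 113283891 to 113284188 had 2.79 and 2.75 (2.77 ± 0.0289). Its summits were 5.14 kb and 5.15 kb before the annotated start and 5 bp apart. It is the closest region to the PAX8 start on either side.

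Like the shared peaks outside the strongest region, the peaks found in 1 replicate only had a fold enrichment below their library's median. Replicate 1 had 1, at 113242477 to 113242662 (fold enrichment 2.49), which is 553 bp from the nearest peak of replicate 2. Replicate 2 had 6, with fold enrichment from 2.25 to 3.51 and −log10 q from 1.90 to 3.48. Of these 6, 4 lay within 1 kb of a peak of replicate 1: those starting at 113220564 (gap 273 bp), 113226023 (239 bp), 113241649 (293 bp) and 113284721 (543 bp). Over all unshared peaks of replicate 2, 15.1% had a peak of replicate 1 that close. That share was taken over the whole list, not over windows as dense in peaks as that of PAX8, so it is no matched comparison. The remaining pair, at 113204091 inside PSD4 and at 113256568 inside PAX8, were 4908 bp and 13906 bp from any peak of replicate 1. The strongest unshared peak was the one at 113256568, at 3.51-fold on a pileup of 18.

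The PAX8 peaks combined high pileup with low fold enrichment. In replicate 1, 7 of 7 had a pileup above that library's median of 19, and 6 of 7 a fold enrichment below its median of 3.99. In replicate 2, 11 of 12 had a pileup above the median of 19, and 11 of 12 a fold enrichment below 3.89. The exception in fold enrichment was the strongest region in each library. The background at the PAX8 summits had a median of 9.42 fragments in replicate 1 and 9.38 in replicate 2, which is 2.42 and 2.33 times the medians of all peaks (3.90 and 4.03). All 19 peaks were above those medians. Neighbouring peaks can raise each other's local background if it was taken from the ChIP library itself, which is not stated. Copy number was not measured here, and the part of either in these values was not tested.

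Set against all protein-coding genes, 6 or more shared regions in the span plus 20 kb were found for 205 genes, 1.03%. Longer genes hold more regions, and among the 2907 genes with a span of 50 to 100 kb, as PAX8 has, 29 (0.998%) had 6 or more, while the median was 0. Per 100 kb of window, PAX8 had 5.83 shared regions. PAX8 was chosen with earlier results of these data known, so its place among these genes is a description, not a test. The genes whose windows held peaks most like those of PAX8, by the sum of absolute differences in peak number over the 2 libraries, were TNIP1, ZMYND8 and ST3GAL3, with 7 peaks of replicate 1 and 12 of replicate 2 each, a difference of 0. They had 7, 7 and 6 shared regions, and spans of 57.7, 147 and 224 kb.

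**Figure D2:**
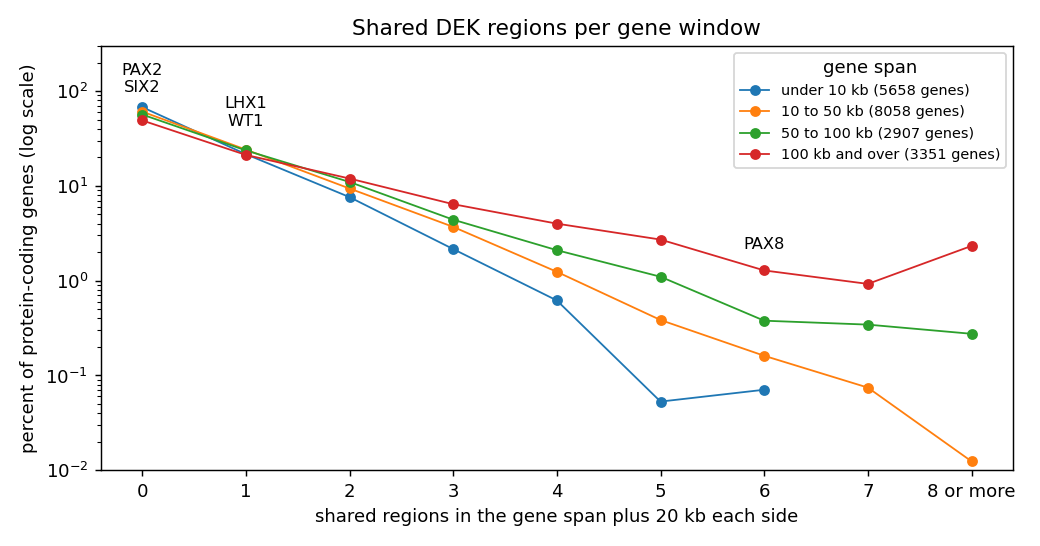
Percent of protein-coding genes (log axis) with a given number of shared DEK regions in the gene span plus 20 kb each side, as points joined by lines for 4 classes of gene span, with the members' names placed at their own counts. PAX8 has 6, LHX1 and WT1 have 1, and PAX2 and SIX2 have 0; no point is drawn where a class has no gene.

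PAX2, the paralogue of PAX8, had peaks of both replicates but no shared region. Its window (gene span chromosome 10, 100735396 to 100829944, 94.5 kb, plus strand) held 2 peaks of replicate 1 and 3 of replicate 2, and 0 of the 5 overlapped. Among protein-coding genes, 5.57% had peaks of both libraries and no shared region. The strongest was a replicate 2 peak at 100743346 to 100743812. It lay inside the gene, 8.17 kb from the first annotated start and 2012 bp before the second annotated start. It had a fold enrichment of 5.44, a −log10 q of 9.08 and a pileup of 25. The nearest peak of replicate 1 was 9458 bp away. Also inside the gene, replicate 1 had a peak at 100775287 to 100775515, 39.95 kb from the first start, with 4.47-fold and a pileup of 15. The nearest peak of replicate 2 to it was 31475 bp away.

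Before the first PAX2 start both libraries had peaks, at different places. Replicate 1 had a peak at 100733620 to 100733888, 1.68 kb before the start (3.08-fold). Replicate 2 had peaks at 100731765 to 100732041, 3.41 kb before it (2.68-fold), and at 100731159 to 100731458, 4.04 kb before it (3.57-fold, −log10 q 6.23). The gap between the libraries here was 1579 bp at its smallest. Absence from a list shows only that no signal there passed the authors' threshold at that depth.

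LHX1 had 1 shared region, in its flank. The gene (chromosome 17, 36936785 to 36944612, 7.83 kb) had no peak inside it. The shared region, at 36921507 to 36921883, lay 15.1 to 15.2 kb from the end of lower coordinate, inside the long non-coding RNA gene LHX1-DT (36861674 to 36936661). Its fold enrichment was 3.71 in replicate 1 and 3.38 in replicate 2 (3.54 ± 0.232, SD, n = 2), on pileups of 27 and 28, with −log10 q of 5.68 and 5.11. Replicate 2 had another peak 574 bp from any of replicate 1, at 36920792 to 36920976 (2.98-fold). The part of AATF in the window held no peak.

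WT1 had 1 shared region, inside the gene, and it was the thinnest of the 8 in reads. The gene spans chromosome 11, 32387775 to 32435539 (47.8 kb, minus strand), and the region lay at 32421164 to 32421424, 14.2 kb from the most upstream start and 9526 bp (replicate 1) and 9430 bp (replicate 2) from the nearest of the 4. The replicates had 3.23 and 3.63 (3.43 ± 0.284, SD, n = 2), with pileups of 14 and 17. The exact Poisson 95% intervals of these pileups, 7.65 to 23.5 and 9.90 to 27.2, overlap broadly, and the −log10 q was 2.26 and 3.501. Replicate 2 also had a peak 1.55 kb beyond the end of the gene, at 32386102 to 32386269 (3.42-fold, pileup 14), 34895 bp from any peak of replicate 1. The antisense gene WT1-AS held no peak in the part that lies in the window. At WT1 the background, at 3.39 to 3.96 fragments, was below the library medians. At PAX8 and LHX1 every peak was above them. At PAX2 1 of 2 was above in replicate 1 and 2 of 3 in replicate 2. The LHX1 peaks, like most at PAX8, also had a pileup above their library's median and a fold enrichment below it.

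SIX2 had no peak in either replicate. Its span is the shortest of the 5 (chromosome 2, 45005182 to 45009452, 4.27 kb, minus strand). Among protein-coding genes 36.1% had no peak of either library in the span plus 20 kb, and among those with a span under 10 kb 46.7%.

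**Figure D3:**
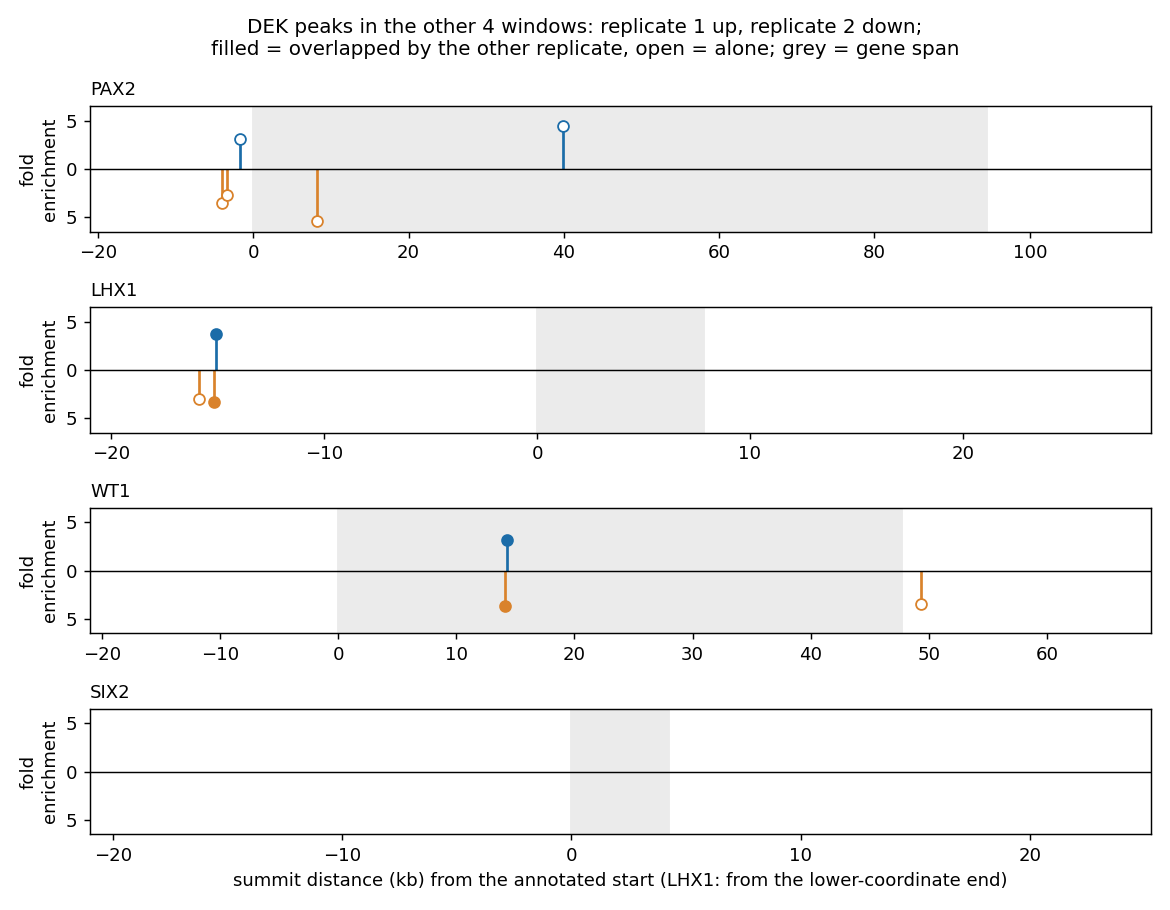
Fold enrichment of the DEK peaks of PAX2, LHX1, WT1 and SIX2 (vertical axes, replicate 1 upward, replicate 2 downward) against the distance of the summit in kb from the first annotated start, or for LHX1 from the end of lower coordinate; grey marks the gene span. The 5 peaks of PAX2 are open, as none is overlapped by the other replicate, and the SIX2 panel is empty.

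Over the 5 genes, 4 had a peak of each library in the window, against 51.4% of all protein-coding genes for replicate 1 and 57.8% for replicate 2. A shared region in the window was found for 3, against 39.7%, and inside the span for 2, against 22%. By gene span the share with a shared region in the window was 32.1% under 10 kb (the class of LHX1 and SIX2), 39.1% from 10 to 50 kb (WT1) and 43.3% from 50 to 100 kb (PAX8 and PAX2). With 5 genes these counts are close to the background and show nothing particular to the set. PAX8 held 6 of the 8 shared regions. For the 8, the median absolute log2 ratio of fold enrichment between the replicates was 0.11, beside 0.17 over all 12590, and the median distance between summits 79.5 bp, beside 69 bp.

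**Figure D4:**
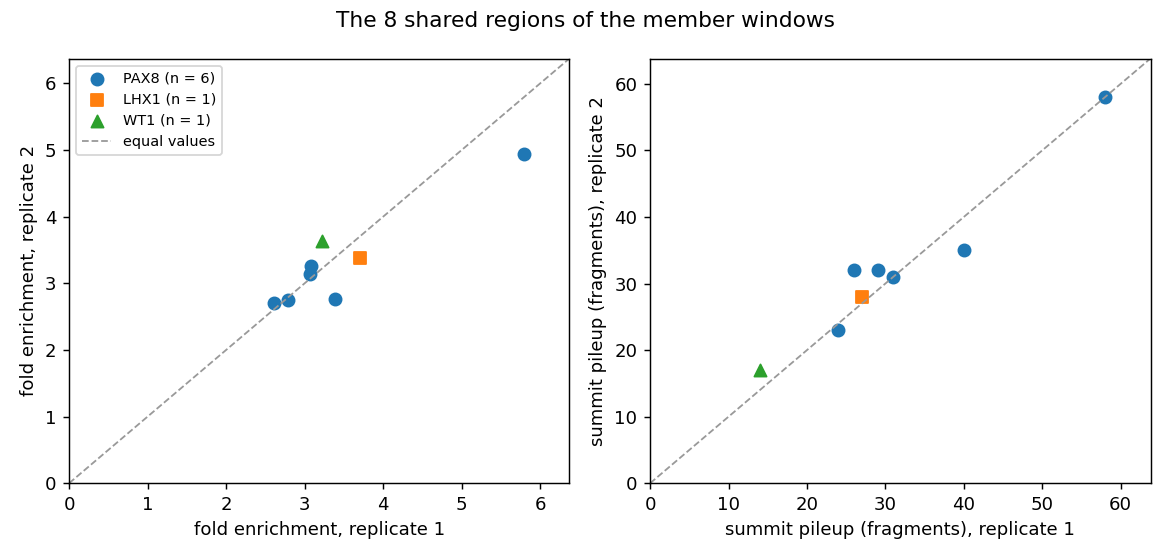
Replicate 2 against replicate 1 for the 8 shared regions, as fold enrichment (left) and summit pileup in fragments (right), with the dashed line at equal values. The strongest PAX8 region stands apart from the other 7 in both panels, with a pileup of 58 in each replicate, and the WT1 region has the lowest pileups, 14 and 17.

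Other genes linked to the kidney programme or to the members were counted in the same windows. Of 71 genes in 8 lists, the members left out, 20 (28.2%) had a shared region and 34 (47.9%) had no peak in either library, against 39.7% and 36.1% of all protein-coding genes. Their median number of shared regions was 0, as over all protein-coding genes. Among the early kidney transcription factors 3 of 16 had a shared region: TFCP2L1, HOXD11 and FOXC2. EYA1, a transcriptional coactivator of nephron progenitors, SALL1 and GATA3 had no peak, and OSR1, an early marker of the intermediate mesoderm, had 1 peak in replicate 2 only. Among the nephron segment factors 4 of 11 had one, among podocyte and stroma factors 1 of 6, and among inductive signals 4 of 12. The list of podocyte and tubule genes linked to WT1 or PAX8 had the highest share, 4 of 6 (66.7%: CDH16, AMHR2, PODXL and CDH6). AMHR2, the receptor of anti-Müllerian hormone, was listed for that link and not as a podocyte or tubule gene. The list had a median of 1.5 shared regions, and none of the 6 was without a peak. With 6 genes, and picked as the highest of 8 lists, this count of 4 is not set apart from the 39.7%. The receptor gene RET had no peak, its ligand gene GDNF 1 in replicate 1 only, and WNT4 2 in replicate 2 only.

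Among the genes of these lists with the most shared regions were GFRA1, CDH16, AMHR2, PPARGC1A and ESRRA. GFRA1, the co-receptor of GDNF, had 5, all inside its 218 kb span, and the strongest reached 4.49 ± 0.269 (SD, n = 2). CDH16, the kidney-specific cadherin, had 4, none inside the gene. The strongest, at 3.53 ± 0.487, lay 0.388 kb outside the gene on the side of higher coordinate. Strand was not used here, so whether that side is its start was not assigned. AMHR2, the receptor of anti-Müllerian hormone, had 3, with 5.99 ± 0.501 for the strongest, inside the gene. PPARGC1A, a coactivator of mitochondrial genes with a span of 681 kb, had 3. Its strongest region, at 4.84 ± 0.249, lay 3.31 kb outside the gene. The nuclear receptor gene ESRRA had 2 (4.85 ± 0.270; SD, n = 2 for each). The strongest region of ESRRA lay 18.5 kb outside the gene.

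Among relatives of the members, 2 of 7 other PAX genes had a shared region, PAX7 (4.85 ± 0.319, 12.3 kb outside the gene) and PAX5 (3.39 ± 0.325, inside it; SD, n = 2 for each), and the other 5 had no peak. Of 11 other LIM homeobox genes 1 did, LHX3 (5.07 ± 0.0450, 15.2 kb outside the gene), and 7 had no peak. Of the 5 other relatives of SIX2, SIX3 did and 4 had no peak.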

How the data were processed

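The authors deposited 1 peak list for each of the 2 DEK ChIP-seq libraries, and these lists were the data used. Per the submitters' processing notes the build was GRCh38 (hg38) and the tools, in no stated role, included MACS2 2.2.7.1, Bowtie2 2.2.5, cutadapt 1.18 and deepTools 3.5.1. The role of any control library is a detail not given in the sources used here. Fold enrichment, as the authors deposited it, is a linear ratio within 1 library, taken at the summit. The deposited −log10 p and −log10 q belong to the same position, and the smallest −log10 q were 1.31 and 1.30, near a q of 0.05. The deposited score equals 10 times −log10 q without its decimals in 100% and 99.95% of peaks.

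Pileup and background were solved from fold enrichment, taken as (pileup + 1) over (background + 1), and the Poisson p. A whole-number pileup met the deposited p within 5e-05 in 99.99% and 99.996% of peaks. Overlaps of at least 1 bp made shared regions, which took the strongest peak of each library. The solving and joining steps were tested on simulated data. Genes and promoter sequences came from RefSeq tables of GRCh38.p14. No genome or transcripts were used, so peak sequence and exon or intron were not assigned. With 1 group of 2 replicates no test between conditions exists, and values are means ± SD or counts beside those of all protein-coding genes. Members and gene lists were chosen with earlier results of these data known. Named are the members, the 6 list genes with the most shared regions (ties by fold enrichment) and the 3 genes nearest PAX8 in peak number (ties by span). A result for 1 of these 6 is not reported here. The other genes were named after their values were seen. Python 3.11.15, numpy 2.4.6, pandas 2.3.3 and scipy 1.17.1 were used. Alternatives were window size, peak threshold, the overlap that counts as shared and each replicate alone.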

Additional observations from a re-analysis of the deposited data

How the results depend on the processing

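The windows of the 5 genes held 8 shared regions, and 3 genes had at least 1. With the gene span alone the regions numbered 5 (LHX1 0), with −log10 q of at least 5 they numbered 2 (PAX8 1, WT1 0), and with a fold enrichment of at least 4 only 1 was left, at PAX8, with 1 gene having any (PAX8 1, LHX1 0, WT1 0). LHX1 also had 0 with 5 kb each side and with summits within 100 bp. With 50 kb each side PAX2 had 2 and LHX1 2. Peaks of a single library, replicate 2 or replicate 1 in that order, numbered 19 and 11 in all, 12 and 7 at PAX8, 3 and 2 at PAX2, 2 and 1 at LHX1, 2 and 1 at WT1, and 4 genes had 1 or more in each. So 5 of the 6 PAX8 regions rest on peaks below −log10 q of 5 in at least 1 library, while the strongest region of PAX8 (5.37, or 4.94 and 5.79 in the replicates alone) was found under every threshold and overlap rule tried. SIX2 had 0 in each of these settings. The WT1 region rests on 14 and 17 fragments, and the 5 weaker PAX8 regions on 23 to 40. No paired analysis was possible because the 2 libraries form 1 group.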

Other observations

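The surroundings of the genes differed. Within 200 kb of PAX8 on either side there were 8 shared regions, of which 6 lay within 20 kb, and none was added between 20 and 50 kb. Around PAX2, where no region was shared within 20 kb, there were 2 within 50 kb, 3 within 100 kb and 6 within 200 kb. WT1 kept 1 shared region out to 200 kb, the one inside the gene, LHX1 had 3 out to 200 kb, and SIX2 had 0 within 50 kb, 1 within 100 kb and 4 within 200 kb.

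On the downstream side, the nearest peaks to SIX2 were 57.1 kb beyond its end in both libraries (fold enrichment 4.11 in replicate 1 and 3.89 in replicate 2). They form 1 shared region, at chromosome 2, 44947838 to 44948126, which lies 1.89 kb outside the neighbouring homeobox gene SIX3 and is the region counted for SIX3 above. On the upstream side, replicate 2 had a peak 47.9 kb from SIX2, at 4.80-fold on a pileup of 16, and the nearest of replicate 1 was 119 kb away.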
